A study of Mus musculus with 6 samples.

Results

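Transcripts of 10 acetylcholine receptor genes were examined, of 24421 genes in the count table. The genes were taken by name: the 5 muscarinic receptors Chrm1 to Chrm5 and the nicotinic subunits Chrna3, Chrna4, Chrna5, Chrna7 and Chrnb2. All 10 were found in the table, and 9 passed the filter on low counts. The RNA came from nuclei sorted out of dissected medial prefrontal cortex (mPFC). The animals were Foxp2-Cre mice, and 3 libraries came from those given CFA (complete Freund's adjuvant, which provokes inflammation and is used as a pain model) and 3 from those given saline. Both groups carried the Foxp2-Cre allele and, on both sides of the brain, an adeno-associated virus expressing GFP fused to a KASH domain, which holds the protein at the nuclear envelope, and were taken 4 weeks after that injection. Each library was made from 10000 nuclei labelled as Foxp2 positive neurons. The Foxp2-Cre driver limits which cells can be marked only if the virus depends on Cre, and the labels do not say whether it does. Age, sex, the time between CFA and collection, and whether a library came from 1 animal or from several are not given in the labels, so p-values measure the spread between libraries, which may be partly technical.

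Acetylcholine reaches the cortex mainly from neurons of the basal forebrain and acts through receptors of unlike build. Muscarinic receptors are G protein-coupled: M1, M3 and M5 (Chrm1, Chrm3, Chrm5) act through Gq and phospholipase C and close M-type potassium channels, while M2 and M4 (Chrm2, Chrm4) act through Gi and Go, lower cyclic AMP and open GIRK potassium channels. Nicotinic receptors are cation channels of 5 subunits. In cortex the main forms are a high-affinity receptor of alpha4 and beta2 subunits (Chrna4, Chrnb2), which in layer 6 often takes in the accessory subunit alpha5 (Chrna5), and a channel built of alpha7 (Chrna7) alone. Layer 6 corticothalamic neurons, which are among the cells that Foxp2 marks, are known for direct excitation by nicotinic and muscarinic agonists.

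Libraries held 10663201 to 11850741 counts in the CFA group and 9673038 to 11117681 in the saline group. Levels are given as CPM, read counts set to a common library size that is scaled by TMM factors, and, where genes are compared with each other, as CPM per kilobase of the exon length in the table. Saline replicate 3 stood apart from the other saline libraries on the first principal component of log2 CPM (27.9% of the variance), at -50.4 against 29.9 and 35.8, while the CFA replicates spanned -19 to 4.19. The labelled cell type was checked against markers. Slc17a7, the vesicular glutamate transporter of cortical excitatory neurons, was at 1930 to 2650 CPM in CFA libraries and 1950 to 2290 CPM in saline libraries. All 7 layer 6 corticothalamic markers were tested, with a summed level of 782 to 887 CPM in CFA libraries and 751 to 1090 CPM in saline libraries. By log2 fold change 1 of the 7 was higher in CFA and 6 were lower. Ntsr1 was the only one whose groups did not overlap. It was at 11.6 to 15.6 CPM in CFA, against 18.7 to 22.8 CPM in saline libraries. Foxp2, also among the 7, was at 24.0 to 34.9 CPM in CFA libraries and 28.3 to 43.7 CPM in saline libraries. Transcripts of other neurons were present. All 6 inhibitory neuron markers were tested, with a summed level of 108 to 177 CPM in CFA libraries and 108 to 168 CPM in saline libraries. By log2 fold change all 6 were higher in CFA, with a median of 0.25. Of 9 striatal projection neuron markers 8 were tested, and the list summed to 246 to 430 CPM in CFA libraries and 357 to 911 CPM in saline libraries. All 8 were lower in CFA, with a median log2 fold change of -1.03. Of these 8, 6 had an unadjusted p under 0.05 by edgeR, against 3.22% of all genes, and 0 passed after adjustment. The groups did not overlap for 2 of the 8, Rgs9 and Rarb, against 7.51% of all genes. Some marker sums did not overlap between the groups. Astrocyte markers (6 of 6 tested) summed to 201 to 286 CPM in CFA libraries, against 172 to 187 CPM in saline libraries, and oligodendrocyte precursor markers (3 of 4 tested) to 23.5 to 31.2 CPM in CFA, against 14.7 to 18.8 CPM in saline libraries. The members of these lists did not all go the same way. By log2 fold change 4 astrocyte markers were higher and 2 lower in CFA. Aldoc held most of the sum, at 150 to 209 CPM in CFA, against 108 to 134 CPM in saline libraries. Of the tested precursor markers 2 were higher in CFA and 1, Cspg4, was lower (log2 fold change -1.10). Layer 6b markers (4 of 4 tested) summed to 120 to 192 CPM in CFA, against 197 to 305 CPM in saline libraries. Sums of layer 5 markers (477 to 566 CPM in CFA, 530 to 592 CPM in saline libraries) and of oligodendrocyte markers (223 to 374 CPM in CFA, 275 to 317 CPM in saline libraries) overlapped. The part of these cells in the receptor values below was not tested.

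Promoter sequences are shown for a pair of neighbouring nicotinic genes whose levels lay far apart, Chrna5 and Chrna3, and for the pair of Gi-coupled muscarinic genes, Chrm2 and Chrm4, whose summed level is described further on. Each is the 250 bases before the gene's start in RefSeq (build GRCm38.p6, the same assembly as mm10), written 5' to 3' on the gene's own strand. For Chrna5, which has more than 1 start in RefSeq, the start nearest to the beginning of the gene is shown. Capitals mark the GC box GGGCGG on either strand, the core letters bound by Sp1-type factors.
Chrna5, chr9:54980630-54980879, plus strand: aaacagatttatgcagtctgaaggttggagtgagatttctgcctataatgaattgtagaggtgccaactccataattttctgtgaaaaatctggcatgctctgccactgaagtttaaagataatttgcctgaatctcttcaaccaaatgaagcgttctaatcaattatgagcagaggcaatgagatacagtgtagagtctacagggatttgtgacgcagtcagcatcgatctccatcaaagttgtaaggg
Chrna3, chr9:55026563-55026812, minus strand: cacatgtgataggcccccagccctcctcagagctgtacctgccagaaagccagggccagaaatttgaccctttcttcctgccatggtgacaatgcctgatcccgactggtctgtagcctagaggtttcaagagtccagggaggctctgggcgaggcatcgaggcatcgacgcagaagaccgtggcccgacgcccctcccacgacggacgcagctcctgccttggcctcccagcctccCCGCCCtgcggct
Chrm2, chr6:36387834-36388083, plus strand: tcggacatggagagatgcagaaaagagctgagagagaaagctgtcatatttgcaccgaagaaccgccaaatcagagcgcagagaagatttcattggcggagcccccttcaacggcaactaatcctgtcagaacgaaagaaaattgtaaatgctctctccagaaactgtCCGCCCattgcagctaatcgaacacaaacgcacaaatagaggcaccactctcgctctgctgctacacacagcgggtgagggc
Chrm4, chr2:91921939-91922188, plus strand: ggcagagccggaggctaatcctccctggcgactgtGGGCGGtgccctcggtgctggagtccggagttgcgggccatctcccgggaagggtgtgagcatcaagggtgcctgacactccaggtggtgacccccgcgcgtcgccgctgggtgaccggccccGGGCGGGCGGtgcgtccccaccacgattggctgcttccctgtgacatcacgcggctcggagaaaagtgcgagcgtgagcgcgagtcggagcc
The sequences differed in base composition. The Chrna5 sequence held 3 CG pairs, had 40.0% G and C and no GC box. The other Chrna5 promoter in RefSeq (chr9:54981238-54981487), which overlaps the gene's own exons and is not shown, held 17 CG pairs, 65.2% G and C and 4 GC boxes. The Chrna3 sequence held 13 CG pairs, 63.2% G and C and 1 GC box, so that it lay between those of Chrna5 in each count. The Chrm2 sequence held 12 CG pairs and 1 GC box. The Chrm4 sequence held 26 CG pairs and 3 GC boxes, of which a pair overlap. The RefSeq start of Chrm4 lies outside its model in the GENCODE M21 annotation, which begins at base 91927249. The start of Chrm5, among the promoters counted below, also lies outside its GENCODE model. The table matched 9 of the 10 receptor genes (all but Chrm1) with 10 promoters. A GC box was found in 6 of these 10 promoters, against 32.7% of all 32851 promoters of the table. The letters TATAAA were found in 0 of the 10, against 12.4% of all promoters. A match is a description of the letters and not a measured binding site.

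Chrm1 was the most abundant receptor transcript in every library. Chrm1 (chromosome 19, 8664005 to 8683602, mm10), the main Gq-coupled receptor of cortical excitatory neurons, was at 62.4, 56.0 and 65.2 CPM per kilobase in the CFA libraries, against 62.9, 69.9 and 53.4 in the saline libraries. Over the 6 libraries its mean level was 61.6 CPM per kilobase, at or above 89.6% of the 13560 genes tested. It was 3.75 times the other muscarinic genes together and 1.93 times Chrna4, the next in order. Chrna4 (chromosome 2, 181022311 to 181039177), the ligand-binding subunit of the high-affinity nicotinic receptor, was at 33.5, 32.9 and 33.9 CPM per kilobase in CFA, against 28.4, 35.2 and 27.8 in saline libraries. The ranges of Chrm1 and Chrna4 over the 6 libraries did not overlap, nor did those of Chrna4 and the next gene, Chrna5.

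A middle group of 5 genes followed, and neighbours within it did not differ beyond their spread. Chrna5 (chromosome 9, 54980880 to 55007779) had a mean of 12.7 ± 4.19 CPM per kilobase (SD over the 6 libraries). Chrnb2 (chromosome 3, 89753448 to 89764632), the partner subunit of Chrna4, had 9.38 ± 2.27. Chrna5 was above Chrnb2 in 5 of 6 libraries. Chrm4 (chromosome 2, 91922189 to 91929829) had 7.21 ± 1.42 and Chrm3 (chromosome 13, 9876613 to 10360803) 7.01 ± 1.30, and the order of these muscarinic genes was Chrm4 over Chrm3 in only 2 of 6 libraries. Chrna7 (chromosome 7, 63098692 to 63212526), the subunit of the homomeric channel, had 6.16 ± 0.784. The ranges of each of these neighbours overlapped.

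Chrm2, Chrna3 and Chrm5 were lowest. Chrm2 (chromosome 6, 36388084 to 36524774), known in cortex as a presynaptic and interneuron receptor, had 2.2 ± 1.22 CPM per kilobase, below Chrna7 in 6 of 6 libraries. Chrna3 (chromosome 9, 55011343 to 55026559), a subunit best known from autonomic ganglia and the medial habenula, had 0.269 ± 0.157 CPM per kilobase, from 2 to 16 reads in a library. Its gene model lies 3563 bases from that of Chrna5 on the opposite strand, and the mean level of Chrna5 was 47.2 times that of Chrna3, with ratios of 29.9 to 94.7 in single CFA libraries and 28.4 to 212 in single saline libraries. Chrm5 (chromosome 2, 112479072 to 112480817), known from dopamine neurons of the midbrain, had 0 reads in 6 of 6 libraries, which allows a level of up to 0.143 to 0.174 CPM per kilobase by library (3 counts, counting error only). The table's model of Chrm5 is a single exon of 1746 bases.

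**Figure D1:**
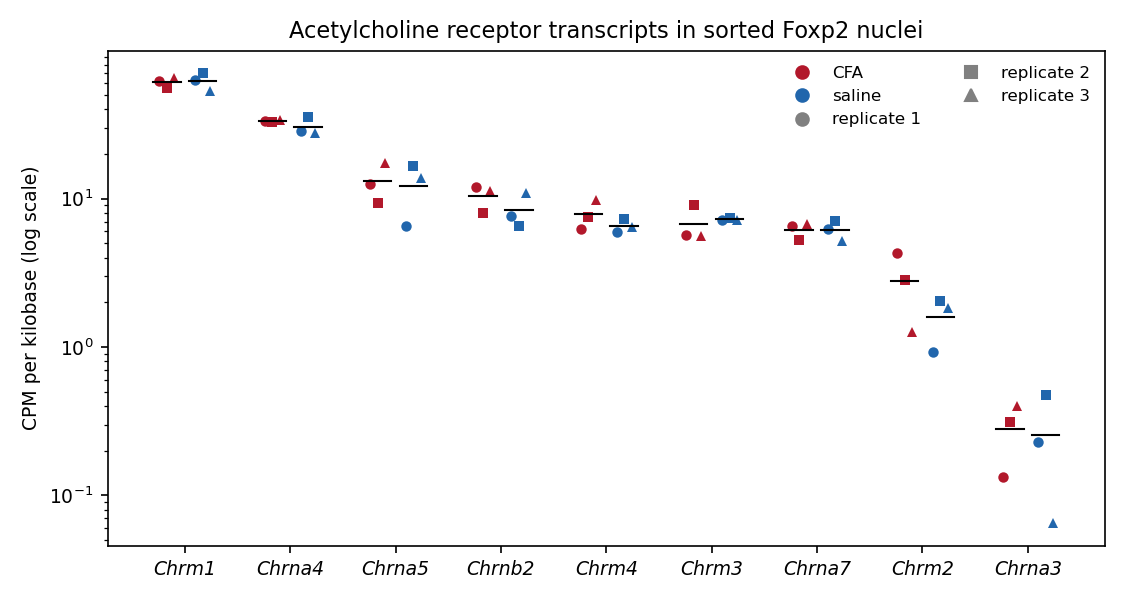
Level of each receptor transcript in CPM per kilobase of exon (log axis), 1 point per library, CFA in red and saline in blue, with a line at the mean of each group. Chrm1 at 53.4 to 69.9 and Chrna4 at 27.8 to 35.2 stand above a middle group of 5 genes, and Chrna3 is below 0.5 in every library. Chrm5, at 0 in all libraries, cannot be drawn on a log axis.

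The order rests on the lengths of the table's gene models, which count only reads inside them. The Chrm2 model has 2036 bases, against 5676 bases for the longest annotated transcript, and the Chrm4 model has 2768, against 1440. With the length of the longest annotated transcript in GENCODE M21, 8 of 10 genes kept their place, and Chrm4 (13.9 CPM per kilobase) and Chrnb2 (7.89) exchanged theirs. Exon sequence shared with a gene on the opposite strand came to 79 bases of Chrm2 (with 9330158H04Rik), 25 bases of Chrm4 (with Mdk) and 8 bases of Chrnb2 (with Adar), and the kits do not mark strand. The other 7 members shared none.

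The comparison of CFA with saline asked whether receptor transcripts of these neurons differ after an inflammatory pain treatment. None of the 9 receptor genes tested passed the threshold: by edgeR's quasi-likelihood test, with p-values adjusted over all 13560 genes by Benjamini-Hochberg, 0 of 9 fell under 0.05, and 0% of all genes did. The adjusted p of each of the 9 rounded to 1 in edgeR's test. DESeq2 called 5 of all genes and limma-voom 0, and neither called a receptor gene. At an unadjusted p under 0.05 edgeR had 0 of the 9, against 437 genes, or 3.22%, of all. The CFA and saline values overlapped for all 9, while the groups were fully apart for 7.51% of all genes (3.55% higher in CFA and 3.97% lower). The log2 fold change, CFA minus saline, was positive for 7 and negative for 2 of the 9, with a median of 0.12, against a median of -0.0011 and 49.8% positive over all genes. In sorted nuclei pooled to a library, fewer nuclei of a type and less RNA per nucleus cannot be told apart.

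**Figure D2:**
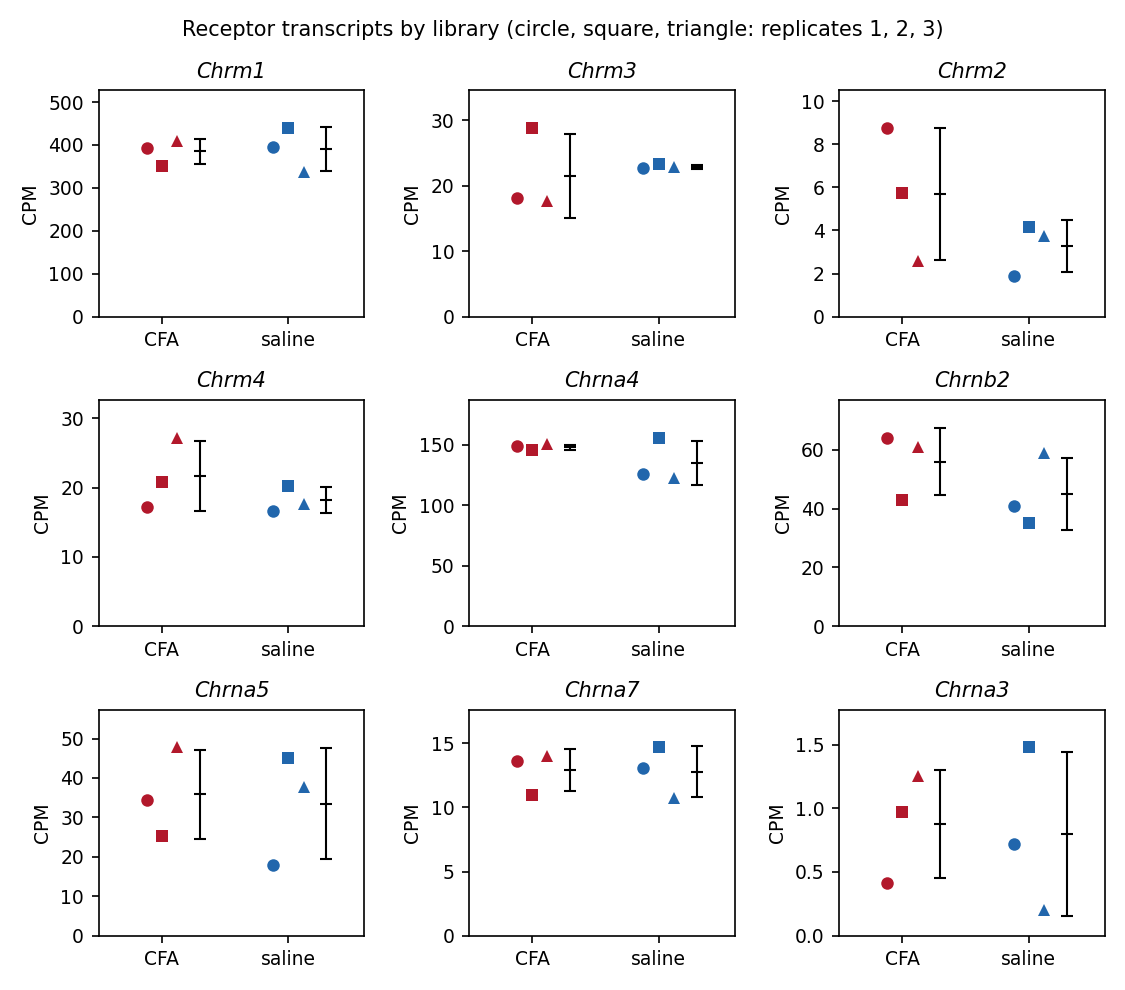
Level of the 9 receptor genes with reads, in CPM scaled by TMM factors, in each CFA library (red) and saline library (blue), with mean ± SD beside the points; each axis starts at 0. In every panel the CFA and saline points overlap, and Chrm2 and Chrna5 scatter most among the genes above 1 CPM.

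Among the Gq-coupled muscarinic genes, Chrm1 was at 393, 352 and 410 CPM in the CFA libraries, against 395, 439 and 336 CPM in the saline libraries. The saline libraries held both the highest and the lowest value. Chrm1 had a log2 fold change of -0.02 ± 0.17 (SE), with a 95% interval from -0.39 to 0.35, a range of 0.765 to 1.27 times. Chrm3, which is also Gq-coupled, was at 18.1, 28.8 and 17.6 CPM in CFA, against 22.7, 23.3 and 22.8 CPM in saline libraries. The saline values lay within 1 CPM of each other and inside the range of the CFA values, of which replicate 2 was highest. For Chrm3 the log2 fold change was -0.09 ± 0.25, with a 95% interval from -0.64 to 0.45.

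Among the Gi-coupled genes, Chrm2 had the largest difference of the members. It was at 8.74, 5.73 and 2.60 CPM in the CFA libraries, against 1.88, 4.17 and 3.75 CPM in the saline libraries. CFA replicates 1 and 2 were above every saline library, and CFA replicate 3 lay among them. Chrm2 had a log2 fold change of 0.80 ± 0.56 (SE), with a 95% interval from -0.39 to 2.0 and an edgeR unadjusted p of 0.172. Without CFA replicate 1 it was 0.35, and without saline replicate 1 it was 0.52. Inhibitory neuron markers, all 6 of them tested, had summed levels of 177, 173 and 108 CPM in CFA libraries and 168, 131 and 108 CPM in saline libraries. By log2 fold change all 6 were higher in CFA, with a median of 0.25, from 0.01 for Sst to 0.81 for Pvalb. None of the 6 had an unadjusted p under 0.05 by edgeR. Sst was at 43.4, 53.6 and 29.1 CPM in CFA, against 52.5, 37.9 and 34.8 CPM in saline libraries. The part of these cells in the values of Chrm2 was not tested. 9330158H04Rik, which shares exon sequence with Chrm2, was at 0.265 to 0.961 CPM in CFA libraries and 0.556 to 1.93 CPM in saline libraries.

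Chrm4, the receptor of direct-pathway striatal neurons and of some cortical cells, was at 17.2, 20.8 and 27.2 CPM in CFA, against 16.6, 20.2 and 17.7 CPM in saline libraries. CFA replicate 3 was above the rest, and the other libraries mixed. For Chrm4 the log2 fold change was 0.26 ± 0.25, with a 95% interval from -0.28 to 0.80. Without CFA replicate 3 it was 0.07. Striatal projection neuron markers, 8 of 9 tested and 0 of them at 0 in all libraries, had summed levels of 430, 246 and 296 CPM in CFA libraries and 911, 451 and 357 CPM in saline libraries. By log2 fold change all 8 tested were lower in CFA, with a median of -1.03. Saline replicate 1 was the highest in striatal markers. Its Chrm4 value, 16.6 CPM, was the lowest of all libraries, with CFA replicate 1 at 17.2 CPM and saline replicate 3 at 17.7 CPM. Drd1, one of these markers, was at 105, 68.0 and 80.7 CPM in CFA, against 156, 101 and 122 CPM in saline libraries. The part of striatal transcripts in the values of Chrm4 was not tested. Mdk, which overlaps Chrm4, was at 1.54 to 2.2 CPM in CFA libraries and 0.835 to 1.97 CPM in saline libraries.

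The subunits of the high-affinity nicotinic receptor overlapped between CFA and saline libraries and did not pass the test. Chrna4 was at 149, 146 and 151 CPM in CFA, against 126, 156 and 123 CPM in saline libraries. The CFA values lay close together, between the highest saline library and the other two. The log2 fold change of Chrna4 was 0.13 ± 0.17, with a 95% interval from -0.23 to 0.50. Chrnb2 was at 64.1, 42.9 and 60.9 CPM in CFA, against 41.0, 35.1 and 58.8 CPM in saline libraries. Saline replicate 3 was above CFA replicate 2 and below the other CFA libraries. For Chrnb2 the log2 fold change was 0.32 ± 0.24, with a 95% interval from -0.19 to 0.82 and an edgeR unadjusted p of 0.199. Without saline replicate 3, the library that stood apart on the first component, the log2 fold change of Chrnb2 was 0.56, with an unadjusted p of 0.0245 and an adjusted p of 0.665 by the same edgeR test. Without saline replicate 2 it was 0.17 and without CFA replicate 1 it was 0.20, with unadjusted p of 0.52 and 0.469 by edgeR. Adar, which shares 8 bases with Chrnb2, was at 134 to 171 CPM in CFA libraries and 121 to 133 CPM in saline libraries.

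Chrna5, the accessory subunit that raises the calcium permeability of the alpha4 and beta2 receptor, was at 34.5, 25.4 and 47.8 CPM in CFA, against 17.8, 45.1 and 37.7 CPM in saline libraries. Both groups spanned a wide range, with coefficients of variation of 31.5% in CFA and 42.1% in saline libraries, against 1.56% and 13.6% for Chrna4. The log2 fold change of Chrna5 was 0.10 ± 0.32, with a 95% interval from -0.57 to 0.77. Without saline replicate 1 it was -0.21, and without CFA replicate 3 it was -0.16. Chrna7 was at 13.6, 11.0 and 14.0 CPM in CFA, against 13.1, 14.7 and 10.7 CPM in saline libraries. The values of Chrna7 mixed fully, with a log2 fold change of 0.0048 ± 0.28 and a 95% interval from -0.60 to 0.61. Chrna3 had 5, 11 and 13 reads in CFA, against 8, 16 and 2 reads in saline libraries. At this depth a difference in Chrna3 was not detectable, and the 95% interval of the fold ran from 0.275 to 4.29 times.

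**Figure D3:**
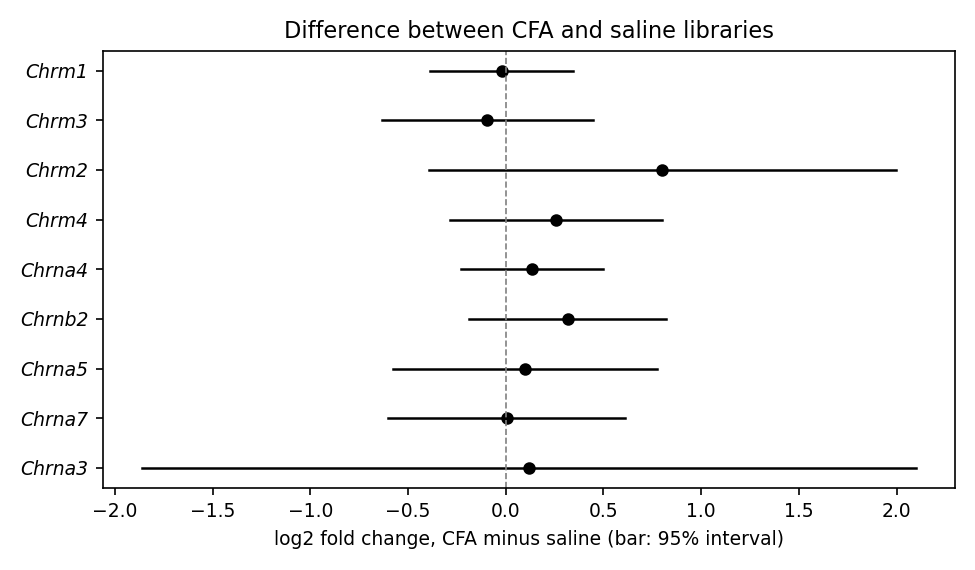
Log2 fold change of each of the 9 tested receptor genes, CFA minus saline, from edgeR's quasi-likelihood fit over all genes, with its 95% interval. Every interval includes 0; the widest are those of the low genes Chrna3 (-1.86 to 2.10) and Chrm2 (-0.39 to 2.0).

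Within a library, Gq-coupled genes made up most of the muscarinic level. The share of Chrm1, Chrm3 and Chrm5 in the summed muscarinic CPM per kilobase was 86.6, 86.3 and 86.4% in the CFA libraries, against 91.0, 89.2 and 88.0% in the saline libraries. The groups did not overlap, with a mean of 86.5 ± 0.169% in CFA and 89.4 ± 1.51% in saline libraries (SD, n = 3 each). Single genes were fully apart in this way for 7.51% of all genes. The share of Chrm1 alone was 79.4, 74.2 and 79.6% in CFA, against 81.7, 80.7 and 77.6% in saline libraries, and overlapped. So did the summed muscarinic level, at 78.7, 75.4 and 81.8 CPM per kilobase in CFA, against 76.9, 86.6 and 68.9 in saline libraries. The summed level of Chrm2 and Chrm4, chosen after its values were seen, was 10.5, 10.3 and 11.1 CPM per kilobase in CFA, against 6.90, 9.35 and 8.25 in saline libraries. It is the rest of the same muscarinic total, so it is not a result separate from the share. With the length of the longest annotated transcript the sum of Chrm2 and Chrm4 was 13.5, 15.5 and 19.3 in CFA, against 11.8, 14.8 and 13 in saline libraries. Its ranges then overlapped. Chrm2 was highest in CFA replicate 1 and Chrm4 in CFA replicate 3. The mean difference in the share was -2.96 percentage points, CFA minus saline, and -3.05 with the length of the longest annotated transcript. With those lengths the share was 83.2, 80.2 and 78.2% in CFA, against 85.2, 83.6 and 81.9% in saline libraries, so that the difference was of like size while the ranges overlapped. With no division by length it was 93.5 to 94.1% in CFA, against 94.3 to 95.8% in saline libraries, a difference of -1.37 points, and the groups did not overlap. No p is given for sums and shares over genes chosen with earlier results known.

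The ratio of nicotinic subunits varied from library to library more than between groups. The level of Chrna5 over that of Chrna4, per kilobase, was 0.377, 0.282 and 0.514 in CFA, against 0.229, 0.467 and 0.495 in saline libraries. The lowest ratio was in saline replicate 1 and the highest in CFA replicate 3. On the log2 scale the CFA mean was -1.40 ± 0.434 and the saline mean -1.41 ± 0.620. The level of Chrnb2 over that of Chrna4 was 0.356, 0.242 and 0.333 in CFA, against 0.268, 0.185 and 0.393 in saline libraries. In every library Chrnb2 was thus below Chrna4 per kilobase. The summed level of the 5 nicotinic genes was 64.7, 55.7 and 69.8 CPM per kilobase in CFA, against 49.0, 65.7 and 57.7 in saline libraries, and these overlapped too.

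**Figure D4:**
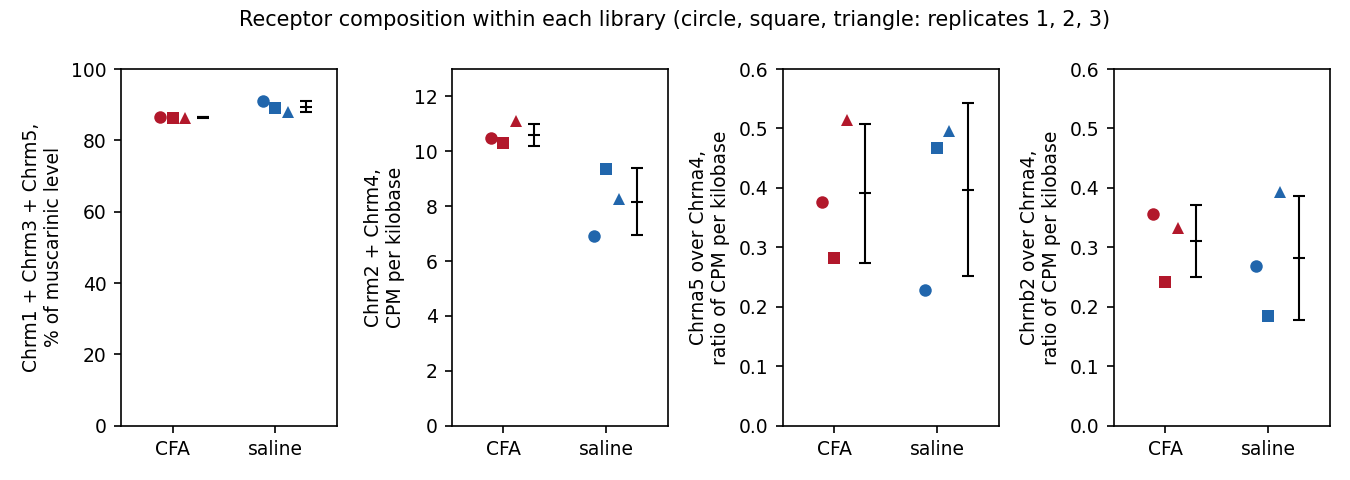
From left, the Gq-coupled share of the muscarinic level (percent), the summed level of Chrm2 and Chrm4 (CPM per kilobase), and the ratios of Chrna5 and of Chrnb2 to Chrna4 (per kilobase), per library with mean ± SD. CFA libraries lie at 86.3 to 86.6% and saline libraries at 88.0 to 91.0% in the first panel, a mean difference of -2.96 points; with annotated transcript lengths it is -3.05 points and the ranges overlap. The second panel holds the rest of the same muscarinic total. In it the groups do not overlap, but with annotated transcript lengths they do. Both ratios overlap between the groups.

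Other genes of acetylcholine signalling were read from the same fit in 6 lists of 65 genes, of which 49 were tested. No member was called in either direction, and 2 of 49 (4.08%) had an unadjusted p under 0.05, against 3.22% of all genes. The CFA and saline ranges were apart for 5 of 49 (10.2%), against 7.51% of all genes. These were Chrnb1, Ache, Lypd1, Kcnq5 and Gnai2, of which Gnai2 was higher in CFA and the other genes lower. Of Lypd1, 58.8% of the exon length is shared with Gpr39 on the opposite strand. Chrnb1, Lypd1 and Gnai2 were chosen after their values were seen.

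Of 11 other nicotinic subunits 4 were tested, with a median log2 fold change of -1.30 over low counts, and 5 had 0 reads in all libraries (Chrna9, Chrna10, Chrnd, Chrne and Chrng). Chrnb4, the beta subunit that partners Chrna3 in ganglia and habenula and whose gene lies 1596 bases from that of Chrna3, had 3, 14 and 11 reads in CFA, against 0, 0 and 0 reads in saline libraries. Summed over the 3 libraries of each group, its level in CFA was 8.80 times that of a floor of 3 counts over the whole saline group. The 28 reads in CFA were taken without error and the floor covers counting error only, so this ratio is not a lower limit of the fold. CFA replicate 1, with 3 reads, was itself at the limit that a count of 0 allows in 1 library. It did not pass the filter on low counts, and without a filter its unadjusted p was 0.0062 and its adjusted p 0.934 in edgeR's quasi-likelihood test. Medial habenula markers, a list of 4 genes that includes Chrnb4, had summed levels of 3.91 to 4.76 CPM in CFA libraries and 2.63 to 5.82 CPM in saline libraries, and none was at 0 in all libraries, though Pou4f1 had reads in only 1 saline library. Their part in the reads of Chrnb4 was not tested.

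Among genes that make, carry and break down acetylcholine, Chat, the enzyme of its synthesis, had 0 reads in 6 of 6 libraries. None of 5 markers of cholinergic neurons was tested, and their summed level was 0 to 0.769 CPM in CFA libraries and 1.01 to 3.31 CPM in saline libraries. Ache, which encodes acetylcholinesterase, was at 86.1, 94.1 and 100 CPM in CFA, against 103, 120 and 106 CPM in saline libraries. All CFA values of Ache lay below all saline values, and the log2 fold change was -0.23 ± 0.17, with a 95% interval from -0.59 to 0.13 and an edgeR unadjusted p of 0.192. The 4 tested members of this list had a median of 0.04.

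Chaperones and toxin-like partners of nicotinic receptors, 8 of 11 tested, had a median log2 fold change of -0.02, with 4 positive and 4 negative. Lynx1, a membrane-bound brake on alpha4 and beta2 and alpha7 receptors, was at 93.2, 129 and 150 CPM in CFA, against 76.2, 114 and 76.5 CPM in saline libraries. CFA replicate 1 was below saline replicate 2, and the log2 fold change was 0.48 ± 0.22 with an edgeR unadjusted p of 0.0449. Ly6h, which limits the surface level of alpha7 receptors, averaged 292 ± 22.8 CPM in CFA libraries and 306 ± 15.3 CPM in saline libraries. Ric3, a chaperone of alpha7, averaged 143 ± 14.5 CPM in CFA libraries and 127 ± 15.9 CPM in saline libraries. Tmem35a, the chaperone also called NACHO and listed under its older symbol Tmem35, averaged 60.1 ± 6.17 CPM in CFA libraries and 62.7 ± 13.9 CPM in saline libraries.

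The Gq pathway list, with 14 of 15 genes tested, had a median log2 fold change of -0.03, with 6 positive and 8 negative. Gnaq, the alpha subunit of Gq, averaged 155 ± 21.9 CPM in CFA libraries and 138 ± 11.2 CPM in saline libraries, and Plcb1, the phospholipase C isoform downstream of it, 205 ± 3.11 CPM in CFA libraries and 219 ± 28.6 CPM in saline libraries. Among genes of M-type channels, which muscarinic receptors close, Kcnq3 averaged 4.61 ± 0.428 CPM in CFA libraries and 5.12 ± 2.24 CPM in saline libraries. Kcnq5 was at 50.2, 46.7 and 46.3 CPM in CFA, against 66.1, 56.7 and 58.3 CPM in saline libraries. The Kcnq5 groups did not overlap, with a log2 fold change of -0.34 ± 0.18, a 95% interval from -0.73 to 0.06 and an edgeR unadjusted p of 0.0871.

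The Gi and Go pathway list, with 11 of 11 genes tested, had a median log2 fold change of 0.07, with 6 positive and 5 negative. Gnao1, the alpha subunit of Go, averaged 258 ± 25.3 CPM in CFA libraries and 258 ± 14.0 CPM in saline libraries. The desensitization list, with 8 of 8 tested, had a median of 0.03. Arrb2, a beta-arrestin, averaged 38.8 ± 6.97 CPM in CFA libraries and 39.9 ± 2.74 CPM in saline libraries. The receptor kinase gene Grk3, listed as Adrbk2, was picked here by its values. With Lynx1 it was the only other one of the 49 under 0.05 before adjustment (unadjusted p 0.0425 by edgeR), and it was at 73.5 ± 10.3 CPM in CFA libraries and 98.9 ± 18.4 CPM in saline libraries.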

How the data were processed

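RNA-seq was made from sorted mPFC nuclei with the Smart-seq V4 and Nextera XT kits, per the labels' protocols. The deposited table holds raw counts per gene for each library beside exon lengths, per the file headers. The authors' build was mm10, and edgeR 3.32.1, featureCounts 2.0.1, SAMtools 1.13, HISAT2 2.2.1 and Trim Galore are named, per the submitters' processing notes. Strand and multimapping settings of the counting were not given in the sources used here.

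Groups came from the sample titles. Genes were tested with edgeR 4.0.16 (R 4.3.3): TMM, filterByExpr, quasi-likelihood test, treatment as the only term, Benjamini-Hochberg adjustment over 13560 genes, threshold 0.05. Standard errors and 95% intervals derive from the F statistic. The script was tested on simulated data. Total counts were 9673038 to 11850741 per library, so that 3 counts, the upper limit of a count of 0, are 0.25 to 0.304 CPM (counting error only, as the reads carry no molecular identifiers). No libraries were duplicates: chi-square over degrees of freedom was at least 17.2 for every pair.

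All 10 receptor genes are named. Lists of pathway and marker genes are given by counts and medians, with values for genes named by rule, of which 1 is not reported here. Members and lists were chosen with earlier results of these data known. Exon overlaps and transcript lengths came from the table and GENCODE M21, promoters from RefSeq. Alternatives covered scaling, filters, DESeq2 1.42.0, limma-voom (limma 3.58.1), the likelihood ratio test, a threshold of 0.1, each library left out, a replicate block and other gene lengths.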

Additional observations from a re-analysis of the deposited data

How the results depend on the processing

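None of the tested receptor genes was called under any of the alternatives run, with a lowest adjusted p of 0.665 (Chrnb2 without saline replicate 3). Of 124 values of single receptor genes under alternatives, 111 kept their direction and 13 did not. Chrna7 was -0.0057 with RLE size factors and -0.0059 in DESeq2. With each library left out in turn, the log2 fold change ran from -0.116 to 0.0758 for Chrm1, from -0.3634 to 0.0322 for Chrm3, from -0.3278 to 0.9003 for Chrna3, from -0.2093 to 0.3758 for Chrna5 and from -0.107 to 0.1173 for Chrna7. The sign held for Chrm2 (0.345 to 1.15), Chrm4 (0.0675 to 0.3953), Chrna4 (0.0729 to 0.2534) and Chrnb2 (0.1706 to 0.5591).

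Over all genes the count of calls was 0 with all libraries in edgeR's quasi-likelihood test (437 genes at an unadjusted p under 0.05) and 0 in limma-voom (469), 9 without a filter on low counts, 5 in DESeq2 and 11 in the likelihood ratio test. It ran from 0 to 5 with each library left out, and was 5 without saline replicate 3. With the replicate number as a block it was 6. Same-numbered libraries had correlations of their deviations from the group mean of -0.0793, 0.0249 and -0.0692, and the other pairs had -0.0791 to 0.146. Within a group of 3 libraries these deviations sum to 0, so the correlations cannot decide whether the numbers pair the libraries. The causes of the shifts in the count of calls were not tested.

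Without division by length 6 of 10 genes kept their place in the order of levels, and the Gq-coupled share, an alternative added after seeing the data, was lower in CFA by a difference of -1.37 percentage points, against -2.96 per kilobase. With each library left out the difference per kilobase ran from -3.66 to -2.15 percentage points. Its sign could not change, as the groups did not overlap in this share. For the log2 ratio of Chrna5 to Chrna4 the difference ran from -0.343 to 0.228, and for that of Chrnb2 to Chrna4 from -0.0825 to 0.459. Depth limits Chrna3 and Chrm5 most, at 16 reads or fewer in a library.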

Other observations

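Other nicotinic subunits, chosen here after their values were seen, had reads in few libraries or at low counts. Chrnb3, which joins alpha6 subunits in catecholamine neurons, had 0, 0 and 29 reads in CFA libraries, against 54, 13 and 38 reads in saline libraries. The saline libraries all held reads, but CFA replicate 3 lay among them. Chrnb1, the beta subunit of the muscle receptor, had 6, 5 and 3 reads in CFA libraries, against 13, 20 and 11 reads in saline libraries. Its groups did not overlap, with a log2 fold change of -1.72 ± 0.85 (SE) and a 95% interval that included 0, from -3.54 to 0.10. Chrna1 and Chrna2 had more reads in total in CFA libraries. Chrna1, the alpha subunit of the muscle receptor, had 23, 8 and 10 reads in CFA libraries, against 0, 5 and 5 reads in saline libraries, and did not pass the filter on low counts. Chrna2 had 22, 25 and 0 reads in CFA libraries, against 10, 0 and 9 reads in saline libraries, with a log2 fold change of 1.16 ± 1.21. Chrna6 had 0, 11 and 8 reads in CFA libraries, against 20, 0 and 14 reads in saline libraries, with a log2 fold change of -0.88 ± 1.23. Lypd1, a toxin-like partner of nicotinic receptors, was at 29.0, 28.7 and 32.7 CPM in CFA libraries, against 46.7, 36.3 and 39.3 CPM in saline libraries, with a log2 fold change of -0.44 ± 0.21. Reads of Lypd1 and of Gpr39 cannot be told apart over most of the exon length of Lypd1.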
